A study of Mus musculus with 12 samples.

Results

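The genes described here make, sense or feed prostaglandins in mouse bone marrow macrophages: 10 genes were listed, and their members were the probe sets whose only annotated gene symbol was one of the 10. A total of 12 such probe sets represented 8 of the 10 genes, against 18193 genes with a probe set of this kind on the whole array. Ptgs1, the constitutive cyclooxygenase, had 0 probe sets under its symbol, and Ptges3, a cytosolic prostaglandin E synthase and co-chaperone, had 2 probe sets that carried several symbols each, so neither was analysed here. All 12 probe sets passed the filter on low signals.

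The study used 12 one-colour Affymetrix arrays of bulk RNA from macrophages of IRAK4 kinase-dead mice (KD) and of wild-type mice (WT). IRAK4 is the kinase that relays signals from Toll-like receptors through MyD88, and LPS is the bacterial lipid that activates Toll-like receptor TLR4. The 6 groups, each with 2 biological replicates, were KD cells grown for 4 h without LPS, with LPS at 1 µg/ml for 1 h and with LPS for 4 h, and WT cells under the same conditions. All cultures were grown in serum and L-929 cell conditioned medium, and the labels do not state the age, sex or strain background of the animals. The unstimulated cells were kept for 4 h, so at 1 h LPS and time in culture differed together. No probe set carried the symbol Irak4, so the transcript of the altered gene gave no check of the labels.

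Prostaglandins are made from arachidonic acid, which phospholipases free from membranes. A cyclooxygenase turns it into prostaglandin H2, and terminal synthases turn that into prostaglandin E2, prostaglandin D2 or thromboxane A2. In macrophages the inducible cyclooxygenase Ptgs2 and the inducible microsomal prostaglandin E synthase Ptges are known as LPS-responsive genes, and prostaglandin E2 acts back on the cells through the receptors EP2 and EP4, which raise cyclic AMP. Alox5ap belongs to the neighbouring branch of the pathway, as the membrane protein that presents arachidonic acid to the lipoxygenase that starts leukotriene synthesis.

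The upstream sequences of Ptgs2, Ptges and Ptger4 are shown because these were the 3 genes whose responses to LPS differed between the strains in the results that follow. Each sequence holds the 250 bases before a transcription start given by RefSeq, read 5′ to 3′ on the gene's own strand, from RefSeq on build GRCm38.p6. The Ptgs2 window is chr1:150099781-150100030 on the plus strand, the Ptges window is chr2:30903298-30903547 on the minus strand and the Ptger4 window is chr15:5244188-5244437 on the minus strand. The Ptgs2 and Ptger4 windows end at the outer edge of the annotated gene, whereas the Ptges window lies inside its annotated span (30889471 to 30931020), so that its start is not the outermost one. Capitals mark matches to the motifs searched on both strands, which here leaves 1 match, that of the C/EBP motif TTGCNNAA in Ptgs2.
Ptgs2: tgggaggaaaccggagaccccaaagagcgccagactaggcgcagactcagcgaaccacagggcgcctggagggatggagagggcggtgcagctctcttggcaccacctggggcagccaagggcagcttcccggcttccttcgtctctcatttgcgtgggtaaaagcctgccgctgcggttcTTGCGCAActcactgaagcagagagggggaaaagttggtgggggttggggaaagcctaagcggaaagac
Ptges: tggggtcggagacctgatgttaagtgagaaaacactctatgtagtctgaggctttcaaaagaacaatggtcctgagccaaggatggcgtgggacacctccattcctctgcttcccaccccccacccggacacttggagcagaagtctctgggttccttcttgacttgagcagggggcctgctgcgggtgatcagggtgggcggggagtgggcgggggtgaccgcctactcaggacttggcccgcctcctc
Ptger4: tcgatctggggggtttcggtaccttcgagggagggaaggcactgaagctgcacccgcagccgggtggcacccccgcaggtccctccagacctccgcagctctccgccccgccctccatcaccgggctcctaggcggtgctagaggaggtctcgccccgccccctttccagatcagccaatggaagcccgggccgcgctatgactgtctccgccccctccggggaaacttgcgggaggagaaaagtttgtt
The search covered windows of 300 bases, with 50 bases after the start, and 9 of the 10 genes had a window. Those of Ptges, Ptgs1, Tbxas1 and Hpgds lay inside the annotated span of the gene. The C/EBP motif matched in 3 of the 9, namely Ptgs2, Hpgds and Ptger2, against 10.8% of all 32851 windows. The E-box CACGTG matched in 2 (in Ptges2 before the start and in Ptgs2 after it), against 7.15% of all windows. The NF-κB consensus matched in 1 (Ptges3), the AP-1 motif TGANTCA in 1 (Tbxas1), the TATA box TATAAA in 1 (Tbxas1) and the cyclic AMP response element TGACGTCA in 0, against 8.46%, 7.81%, 13.6% and 1.79% of all windows. The matches of the TATA box in Tbxas1 lay on both strands and overlapped each other. A match describes the letters of a window and is not evidence of binding.

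Signals are MAS5 intensities in arbitrary units, and they were scaled by the authors to 1 target, so that the trimmed mean of every array was 150. Array medians were 24.2 to 26.9 in KD and 18.9 to 22.0 in WT. Of 10 macrophage markers, 9 were above the array median on all 12 arrays. The first KD unstimulated replicate had the highest log2 ratio of 3′ to 5′ control signal, 1.35 for Gapdh and 3.04 for Actb, against 0.807 to 1.17 and 2.22 to 2.85 on the other arrays. Changes are given as log2(signal + 4.4) with the standard error (SE) of the fit, which understates changes of low signals. A change was called at a limma adjusted p under 0.05. In bulk RNA, fewer cells of a type and less RNA per cell cannot be told apart.

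**Figure D1:**
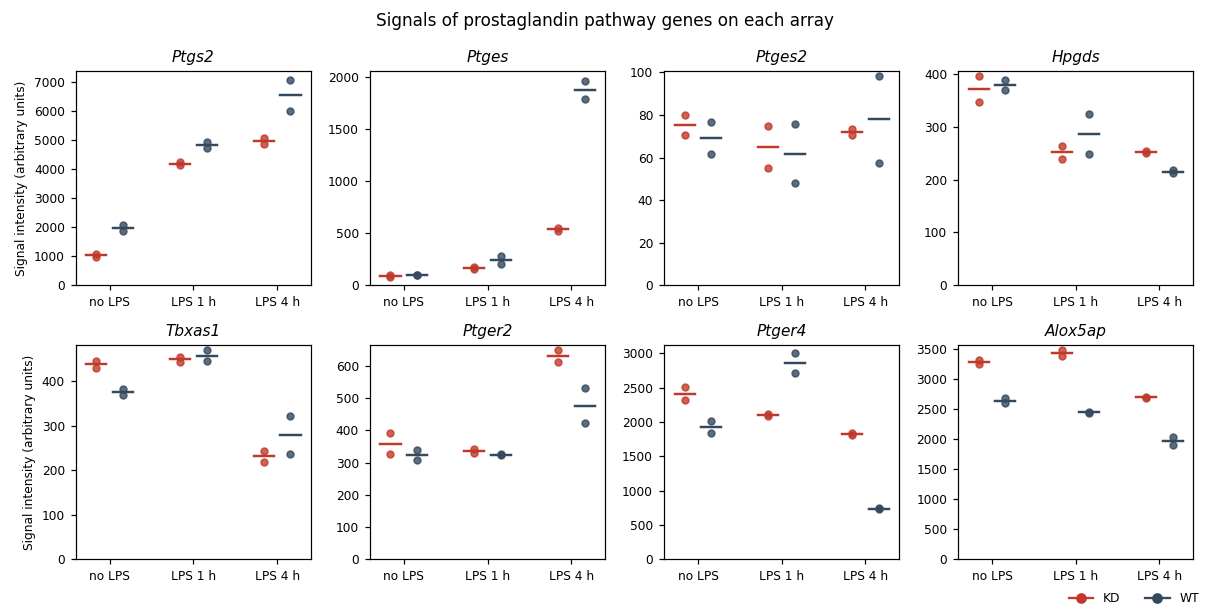
Signal intensity (arbitrary units, from 0) on each array for the 8 measured genes, with KD and WT side by side at each condition, points for single arrays and bars for the mean of 2. Ptges reached 1791 and 1963 in WT after 4 h of LPS, above every KD array, and Ptger4 fell to 732.3 and 740.8 in the same WT arrays, below every KD array.

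Counted by 1 probe set a gene, 7 of 8 genes changed after 4 h of LPS in each strain, always 3 higher and 4 lower. The called share of all probe sets was 10.0% in KD and 17.1% in WT. Ptgs2, Ptges and Ptger2 were the genes that rose in both strains, while Hpgds, Tbxas1, Ptger4 and Alox5ap fell in both. The median change of the 8 genes was -0.17 in KD and -0.15 in WT, against -0.05 and -0.12 over all probe sets tested. After 1 h, 3 genes were called in each strain: Ptgs2 and Ptges higher and Hpgds lower in KD (5.47% of all probe sets called), and Ptgs2, Ptges and Ptger4 higher in WT (6.12% called). The medians at 1 h were -0.03 in KD and 0.14 in WT, against -0.01 and -0.03 over all probe sets. Between 1 h and 4 h, Ptges and Ptger2 rose and Tbxas1 and Alox5ap fell in KD (8.43% called). In WT, Ptgs2, Ptges and Ptger2 rose and Tbxas1, Ptger4 and Alox5ap fell (15.8% called). Of these counts, that of KD at 4 h was 4 without the second KD unstimulated or the second KD LPS 4 h replicate, and that of WT from 1 h to 4 h was 2 without the first WT LPS 4 h replicate.

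**Figure D2:**
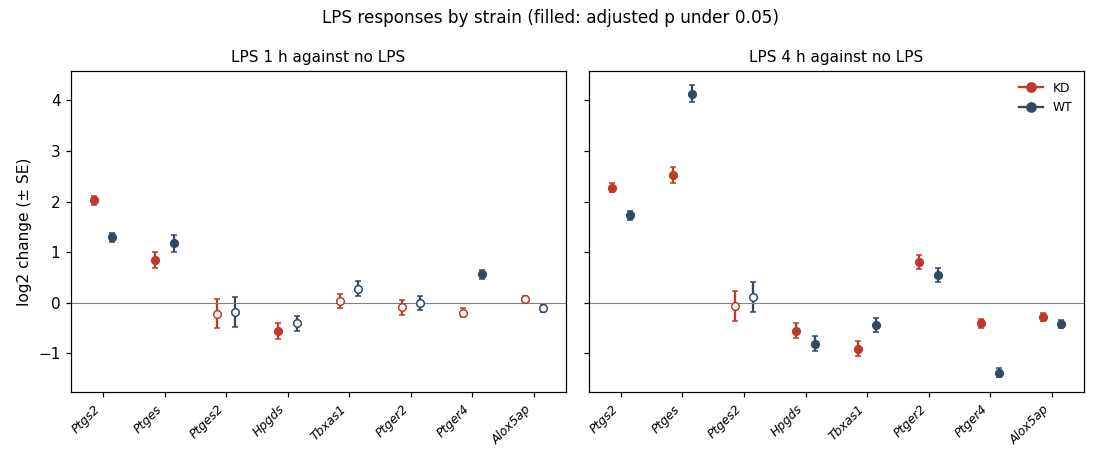
Log2 change of each gene after 1 h and 4 h of LPS against no LPS, KD left of WT, with bars for the SE of the fit and filled points at an adjusted p under 0.05. Ptges stands highest at 4 h, at 2.52 in KD and 4.13 in WT, and Ptger4 lies below 0 in both strains at 4 h.

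Ptgs2, the inducible cyclooxygenase and the committed step of prostaglandin synthesis, was read by 2 probe sets. In KD cells probe set 1417262_at gave 1073.7 and 984.8 without LPS, 4152.2 and 4243.9 after 1 h, and 5089.8 and 4867.5 after 4 h. In WT cells it gave 2067.8 and 1872.6 without LPS, 4750.3 and 4943.8 after 1 h, and 7091.1 and 6014.3 after 4 h. The LPS arrays of each strain lay above its unstimulated arrays at both times, and every KD array lay below both WT arrays of its condition. At 1 h Ptgs2 rose by 2.02 ± 0.09 in KD (adjusted p = 1.15e-11) and by 1.30 ± 0.09 in WT (adjusted p = 8.33e-09). At 4 h it rose by 2.27 ± 0.09 in KD (adjusted p = 1.42e-12) and by 1.73 ± 0.09 in WT (adjusted p = 3.57e-11), which is 4.84 and 3.33 times the unstimulated mean. Between 1 h and 4 h the change was 0.25 in KD (adjusted p = 0.104) and 0.43 in WT (adjusted p = 0.00202), and the WT call was lost without the first WT LPS 4 h replicate (adjusted p = 0.0684).

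By this probe set the strains differed most without LPS, where KD had 0.522 times the WT mean (log2 -0.93 ± 0.09, adjusted p = 7.68e-06). With LPS the KD mean was 0.866 times the WT mean at 1 h (log2 -0.21, adjusted p = 0.337) and 0.76 times at 4 h (log2 -0.39, adjusted p = 0.0126), and the 4 h call was lost without the first WT LPS 4 h replicate or without either KD LPS 4 h replicate, with adjusted p up to 0.24 over the alternatives. With each array centred on its median, the 1 h difference was -0.47 and was called (adjusted p = 0.00207). The log2 response to LPS was thus larger in KD, by 0.73 ± 0.13 at 1 h (adjusted p = 0.0175) and by 0.54 ± 0.13 at 4 h (adjusted p = 0.0231). These responses were compared on the log2 scale, and in signal units the mean gain at 1 h was 3168.8 in KD and 2876.9 in WT, whereas at 4 h it was 3949.4 in KD and 4582.5 in WT. Both calls were lost with a variance prior that has no trend, at adjusted p = 0.42 for 1 h and 0.309 for 4 h. The 1 h call was also lost without the first WT unstimulated replicate, the second WT LPS 1 h replicate or either KD LPS 1 h replicate. The 4 h call was also lost without the first WT unstimulated, second WT LPS 4 h, second KD unstimulated or either KD LPS 4 h replicate.

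Markers of stromal cells also differed between the strains without LPS and in their responses. The summed signal of the 12 stromal markers was 2594.9 to 2894.9 in KD and 5300 to 5637.9 in WT without LPS. After 1 h it was 4286.6 to 5427.6 in KD and 6084.3 to 6226.7 in WT, and after 4 h 4693.6 to 5075.8 in KD and 4436.9 to 4866.9 in WT. Of the 11 markers tested, 6 were lower and 0 higher in KD without LPS (5.25% of all probe sets called), among them Cdh11 (log2 -1.76) and Col1a1 (log2 -1.12). At 1 h, 4 were lower and 1 higher in KD (1.11% called), and at 4 h 1 was lower and 2 were higher (5.37% called). After LPS, 6 rose and 0 fell in KD at 1 h (5.47% called), while 1 rose and 0 fell in WT (6.12% called). At 4 h, 5 rose and 0 fell in KD (10.0% called), while 0 rose and 4 fell in WT (17.1% called). The response was larger in KD for 1 marker at 1 h (0.326% called) and for 7 at 4 h (3.07% called). Lum, the stromal marker that was not tested, was between 0.7 and 8.8 on all arrays. The part of these cells in the Ptgs2 difference was not tested.

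The other Ptgs2 probe set, 1417263_at, gave another order of the strains. In KD cells it gave 24.2 and 16.1 without LPS, 56.1 and 23.4 after 1 h, and 119.8 and 95.6 after 4 h. Its WT signals were 18.3 and 20.8 without LPS, 74 and 101.8 after 1 h, and 834 and 641.4 after 4 h. The strains overlapped without LPS, and at 4 h the WT arrays lay far above the KD arrays. The change at 4 h was 2.20 ± 0.33 in KD (adjusted p = 0.000121) and 4.94 ± 0.33 in WT (adjusted p = 1.37e-09), so that the KD response minus the WT response was -2.74 ± 0.46 (adjusted p = 0.00287). KD was lower than WT at 4 h by this probe set, with 0.146 times the WT mean (adjusted p = 3.2e-05), and without LPS the strains differed by 0.02 ± 0.33 (adjusted p = 0.986). At 1 h its change was 0.76 ± 0.33 in KD (adjusted p = 0.222), where the arrays overlapped those without LPS. In WT it was 1.93 ± 0.33 (adjusted p = 0.000853). The probe sets thus agreed that at 4 h Ptgs2 had risen in both strains and was lower in KD. They disagreed in the call of the strain difference without LPS and of the KD rise at 1 h. They also disagreed in the call of the KD change from 1 h to 4 h, which was 1.44 ± 0.33 by 1417263_at (adjusted p = 0.00777). At both 1 h and 4 h, the strain difference in the response had opposite signs in the 2 probe sets.

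**Figure D3:**
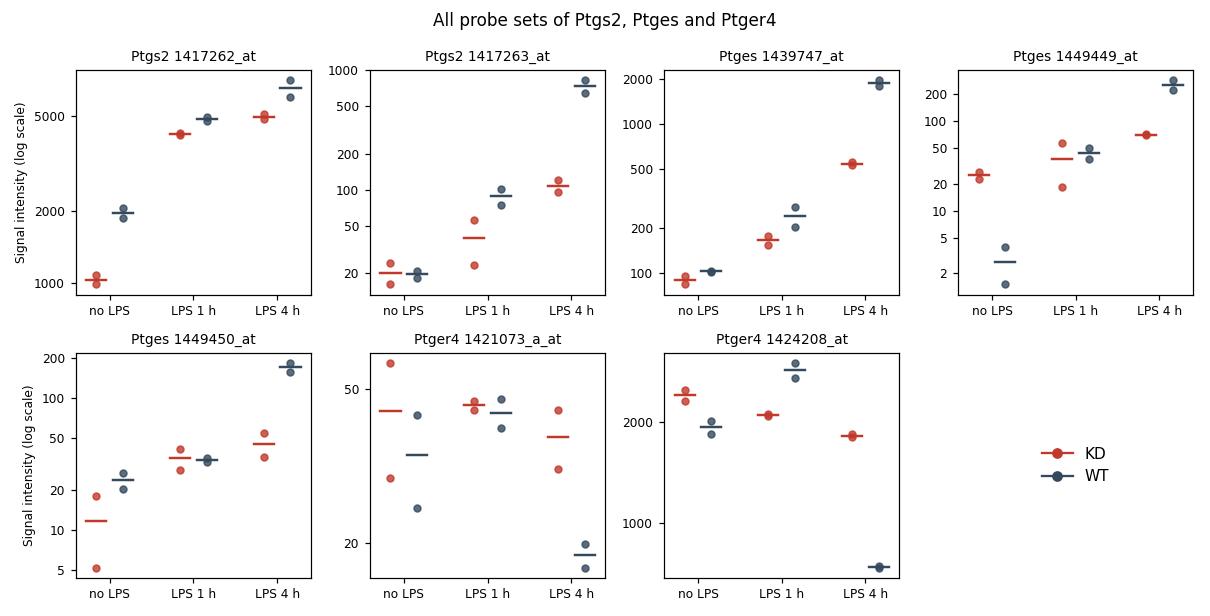
Signal intensity on a log axis for every probe set of Ptgs2, Ptges and Ptger4, with KD left of WT, points for single arrays and bars for the mean of 2. For Ptgs2, 1417262_at separates the strains without LPS (984.8 to 1073.7 in KD, 1872.6 to 2067.8 in WT), whereas 1417263_at separates them after 4 h (95.6 to 119.8 in KD, 641.4 to 834 in WT).

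Ptges, the microsomal synthase that turns the product of Ptgs2 into prostaglandin E2, had the largest rise of the 8 genes at 4 h in both strains, counted by 1 probe set a gene. In KD cells probe set 1439747_at gave 96.2 and 84.1 without LPS, 177 and 155.3 after 1 h, and 525.1 and 550.7 after 4 h. The WT arrays read 101.6 and 103.6 without LPS, 202.9 and 276.6 after 1 h, and 1963 and 1791 after 4 h. By this probe set the strains lay close together without LPS, and at 4 h both KD arrays were far below both WT arrays, with a KD mean 0.287 times the WT mean. Ptges rose at 1 h by 0.85 ± 0.16 in KD (adjusted p = 0.00276) and 1.17 ± 0.16 in WT (adjusted p = 9.85e-05). The KD call at 1 h was lost with the variance prior without a trend (adjusted p = 0.0538) and with only the arrays of the comparison (adjusted p = 0.0621). At 4 h it rose by 2.52 ± 0.16 in KD (adjusted p = 1.69e-09) and 4.13 ± 0.16 in WT (adjusted p = 5.96e-13), which is 5.97 and 18.3 times the unstimulated mean. In KD the other Ptges probe sets rose at 4 h by 1.37 ± 0.41 (1449449_at) and 1.72 ± 0.40 (1449450_at), less than either Ptgs2 probe set. In WT they rose by 5.21 ± 0.41 and 2.6 ± 0.4.

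The Ptges response at 4 h was smaller in KD, with a difference of -1.61 ± 0.23 (95% interval -2.09 to -1.13, adjusted p = 0.000754), and this call was lost only with the variance prior without a trend (adjusted p = 0.0794) among the alternatives run. At 1 h the difference of the responses was -0.32 ± 0.23 (adjusted p = 0.665). KD differed from WT by -0.18 ± 0.16 without LPS (adjusted p = 0.631), by -0.50 ± 0.16 at 1 h (adjusted p = 0.165) and by -1.79 ± 0.16 at 4 h (adjusted p = 1.21e-06). With each array centred on its median, the 1 h difference was -0.77 and was called (adjusted p = 0.00819). Of the other Ptges probe sets, 1449449_at gave 72.7 and 69.7 in KD and 291.4 and 223.7 in WT at 4 h, and 1449450_at gave 54.5 and 35.4 in KD and 156.3 and 182.8 in WT. The signals of all 3 probe sets were therefore lower in KD at 4 h. The KD response minus the WT response was -3.85 ± 0.58 for 1449449_at (adjusted p = 0.00136), and the difference for 1449450_at was -0.92 ± 0.57 (adjusted p = 0.49). Without LPS, 1449449_at gave 22.7 and 27.3 in KD and 1.5 and 3.9 in WT, so that by this probe set Ptges was higher in KD (log2 2.07 ± 0.41, adjusted p = 0.00595), and both WT signals were under the added constant of 4.4. Its change at 1 h was 0.35 ± 0.41 in KD (adjusted p = 0.735) and 2.78 ± 0.41 in WT (adjusted p = 0.000225). For 1449450_at the change at 1 h was 1.4 ± 0.4 in KD (adjusted p = 0.0504) and 0.45 ± 0.40 in WT (adjusted p = 0.632).

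Ptges2, a second membrane-associated enzyme reported to make prostaglandin E2, was called in none of the 11 comparisons. Its signals ran between 55.1 and 79.8 on the KD arrays and between 48.1 and 98.3 on the WT arrays, and the strains overlapped in every condition. At 4 h its change was -0.06 ± 0.29 in KD (95% interval -0.68 to 0.56) and 0.12 ± 0.29 in WT (95% interval -0.50 to 0.74), so that changes within these intervals remain possible.

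Hpgds, the haematopoietic synthase of prostaglandin D2, fell in both strains at 4 h. In KD cells it gave 346.8 and 396.3 without LPS, 263.6 and 239.1 after 1 h, and 250.1 and 253.3 after 4 h. WT cells had 388.4 and 368.3 without LPS, 323.9 and 248.7 after 1 h, and 211.8 and 217.6 after 4 h. The LPS arrays of each strain lay below its unstimulated arrays. The change at 4 h was -0.55 ± 0.15 in KD (adjusted p = 0.0246) and -0.80 ± 0.15 in WT (adjusted p = 0.000757), and the responses differed by 0.25 ± 0.21 (adjusted p = 0.648). At 1 h it was -0.55 ± 0.15 in KD (adjusted p = 0.0369) and -0.41 ± 0.15 in WT (adjusted p = 0.134). The KD calls rested on few arrays: that at 4 h was lost without either KD LPS 4 h replicate or the second KD unstimulated one, and that at 1 h was kept in 3 of 12 fits that left out 1 array. Mast cells also carry Hpgds, and of their 8 markers 0 were above the array median on all arrays, with Cpa3 between 0.8 and 16.2 and Kit between 0.5 and 12.2.

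Tbxas1, which makes thromboxane A2, fell in both strains at 4 h and was not called at 1 h in either. In KD cells it gave 445 and 429.9 without LPS, 443.4 and 453.9 after 1 h, and 218.1 and 244.1 after 4 h. The WT signals were 367.7 and 383.3 without LPS, 445.1 and 468.9 after 1 h, and 236.2 and 322.7 after 4 h. The 2 WT arrays at 4 h were spread more widely than those of any other group for this gene. The change at 4 h was -0.91 ± 0.15 in KD (adjusted p = 0.000297) and -0.44 ± 0.15 in WT (adjusted p = 0.0466), and the WT call was lost in 9 of 12 fits that left out 1 array. It was also lost with quantile normalization and with each array centred on its median (log2 -0.31, adjusted p = 0.237). No filter, the variance prior without a trend and only the arrays of the comparison lost it too. The responses differed by -0.47 ± 0.21 (adjusted p = 0.276, 95% interval -0.91 to -0.04). KD differed from WT at 4 h by -0.25 (adjusted p = 0.387), and by -0.52 with each array centred on its median, which was called (adjusted p = 0.0371). Platelets are the classic source of thromboxane. Of their 6 markers 5 had a probe set, 3 were tested and 1, Ppbp, was above the array median on all 12 arrays. Their summed signal without LPS was 116.9 to 127.4 in KD and 138.1 to 195.3 in WT, and at 4 h it was 125.8 to 135.5 in KD and 91.2 to 110.5 in WT. Ppbp lay between 43.7 and 109.3, Gp9 between 2.3 and 59.1, Gp1bb between 5.4 and 53.2, Itga2b between 2.1 and 22.6 and Gp6 between 0.8 and 6.7. Ppbp fell in WT at 4 h (log2 -0.87, adjusted p = 0.0321) and was lower in KD without LPS (log2 -1.02, adjusted p = 0.0347). The part of platelets in the Tbxas1 signal was not tested.

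Ptger2, the receptor EP2, rose in both strains at 4 h. In KD cells it gave 327.1 and 390.7 without LPS, 329 and 341.2 after 1 h, and 648 and 610.4 after 4 h. Its WT arrays read 307.3 and 340 without LPS, 325.5 and 321.9 after 1 h, and 529.9 and 423.6 after 4 h. No array at 4 h overlapped the earlier arrays of its strain. The change at 4 h was 0.81 ± 0.14 in KD (adjusted p = 0.000631) and 0.55 ± 0.14 in WT (adjusted p = 0.00963), and without the first WT LPS 4 h replicate the WT value was 0.39 (adjusted p = 0.185). The KD arrays lay above the WT arrays at 4 h, by 0.41 ± 0.14 (adjusted p = 0.11), and the responses differed by 0.26 ± 0.20 (adjusted p = 0.594, 95% interval -0.15 to 0.68).

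Ptger4, the receptor EP4, was the receptor whose course differed between the strains. In KD cells probe set 1424208_at gave 2319.8 and 2503.3 without LPS, 2112.4 and 2088.5 after 1 h, and 1838.8 and 1810.9 after 4 h. In WT cells it gave 1847 and 2018.2 without LPS, 2718.9 and 3011.7 after 1 h, and 732.3 and 740.8 after 4 h. WT arrays lay below KD arrays without LPS, above them at 1 h and below them again at 4 h, with no overlap in any condition. In KD its change was -0.20 ± 0.09 at 1 h (adjusted p = 0.251) and -0.20 ± 0.09 from 1 h to 4 h (adjusted p = 0.2). In WT it rose by 0.57 ± 0.09 at 1 h (adjusted p = 0.000442) and then fell to 0.257 times its 1 h mean by 4 h (log2 -1.95 ± 0.09, adjusted p = 2.4e-11). Against no LPS, the change at 4 h was -0.40 ± 0.09 in KD (adjusted p = 0.00563) and -1.39 ± 0.09 in WT (adjusted p = 9.52e-10). The KD call was lost without the second KD unstimulated or the second KD LPS 4 h replicate, and it and the WT call at 1 h were lost with the variance prior without a trend (adjusted p = 0.117 and 0.066).

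The 2 strains' Ptger4 responses differed at both times and with opposite signs. The KD response minus the WT response was -0.76 ± 0.13 at 1 h (adjusted p = 0.0134) and 0.98 ± 0.13 at 4 h (adjusted p = 0.000294). The difference at 1 h was lost without the first WT unstimulated, the second WT LPS 1 h or the first KD LPS 1 h replicate, and that at 4 h was kept in all 12 such fits. Both were lost with the variance prior without a trend (adjusted p = 0.383 at 1 h and 0.0962 at 4 h). KD signals were 1.25 times the WT mean without LPS (adjusted p = 0.0434), 0.733 times at 1 h (adjusted p = 0.0157) and 2.48 times at 4 h (adjusted p = 5.25e-08), and the first of these calls was lost in 9 of 12 fits that left out 1 array and with each array centred on its median (log2 0.13, adjusted p = 0.496). The call at 1 h was lost without the second WT LPS 1 h or either KD LPS 1 h replicate and with the variance prior without a trend (adjusted p = 0.241). The other Ptger4 probe set, 1421073_a_at, gave 44.1 and 31.1 in KD and 19.9 and 17.3 in WT at 4 h, and it was called in none of the 11 comparisons (4 h difference of responses 0.54 ± 0.55, adjusted p = 0.721).

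**Figure D4:**
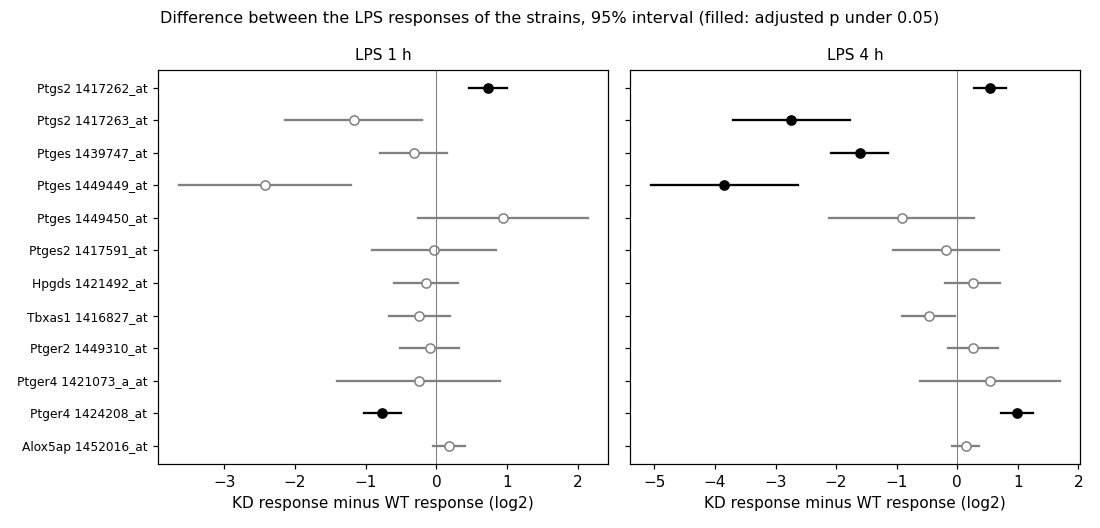
Difference between the strains' log2 responses to LPS (KD response minus WT response) at 1 h and 4 h for all 12 probe sets, with 95% intervals and filled points at an adjusted p under 0.05. Of the probe sets called at 4 h, 1 each of Ptgs2 and Ptger4 lies above 0 (0.54 and 0.98), while the other Ptgs2 probe set and 2 of Ptges lie below 0 (-2.74, -1.61 and -3.85).

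Alox5ap, the partner protein of the leukotriene-forming lipoxygenase, was higher in KD at every condition. In KD cells it gave 3312.6 and 3245.3 without LPS, 3381 and 3487.7 after 1 h, and 2694 and 2688.1 after 4 h. WT arrays read 2595.9 and 2678.7 without LPS, 2449.2 and 2434.2 after 1 h, and 1904.8 and 2031.6 after 4 h. Every KD array lay above every WT array, and in each strain the 4 h arrays lay below the others. KD exceeded WT by 0.31 ± 0.08 without LPS (adjusted p = 0.0219), 0.49 ± 0.08 at 1 h (adjusted p = 0.00232) and 0.45 ± 0.08 at 4 h (adjusted p = 0.00139). With each array centred on its median the differences were 0.12, 0.23 and 0.18, and none was called (adjusted p = 0.443, 0.0969 and 0.176). At 4 h it fell by 0.28 ± 0.08 in KD (adjusted p = 0.0227) and by 0.42 ± 0.08 in WT (adjusted p = 0.000574). The calls of Alox5ap without LPS and at 4 h in KD were each lost without any single array of the groups compared. Both were also lost with no filter, the variance prior without a trend and only the arrays of the comparison. The call at 4 h in KD was lost with median centring too. Without the first KD unstimulated replicate these changes were 0.30 and -0.27, and no other call of the 8 genes was lost.

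Neutrophils are rich in Alox5ap, and the summed signal of their markers was also higher in KD, at 1762.9 to 2491.5, than in WT, at 813.6 to 978.7. Most of that sum was S100a8, which was 2.45 times the WT mean in KD without LPS (adjusted p = 7.27e-06). On all arrays S100a9 lay between 1.8 and 18.5, Mpo between 1.8 and 22.6 and Elane between 4.3 and 33.1. Ltf lay between 1.2 and 25.2, Prtn3 between 1.1 and 28.2 and Camp between 10.8 and 85.8. Of the 3 markers tested, 1 was higher and 0 lower in KD without LPS, at 1 h and at 4 h (5.25%, 1.11% and 5.37% of all probe sets called). Of the 9 neutrophil markers 7 had a probe set and 1 was above the array median on all 12 arrays. The summed signal of the 10 macrophage markers differed too. Without LPS it was 22237.2 to 26533.6 in KD and 18859.8 to 19347.1 in WT. After 1 h it was 24276.4 to 24420.2 in KD and 20885.6 to 23853 in WT, and after 4 h 20904.5 to 22315.9 in KD and 21237.3 to 22845.9 in WT. The part of either cell type in the Alox5ap difference was not tested.

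Set against the whole table and counted by 1 probe set a gene, KD and WT differed in 3 of the 8 genes without LPS (5.25% of all probe sets called). Ptger4 and Alox5ap were higher and Ptgs2 was lower in KD. The other Ptgs2 probe set, 1417263_at, was not called without LPS (log2 0.02, adjusted p = 0.986). At 1 h, 2 of 8 differed (1.11% called), with Alox5ap higher and Ptger4 lower. At 4 h, 4 of 8 differed (5.37% called), with Ptger4 and Alox5ap higher and Ptgs2 and Ptges lower. The median differences of the 8 genes were 0.13, -0.10 and 0.08, against 0.03, 0.05 and 0.08 over all probe sets. The responses differed in 2 of 8 genes at 1 h (0.326% called) and in 3 of 8 at 4 h (3.07% called), with median differences of -0.12 and 0.20 against 0.03 and 0.07 over all probe sets. These comparisons share arrays, since each strain's unstimulated arrays enter both responses. Leaving out 1 array brought the count without LPS to 1 (either WT unstimulated or the second KD unstimulated replicate), that at 1 h to 1 (the second WT LPS 1 h or either KD LPS 1 h replicate) and that of the 1 h responses to 0 (the first WT unstimulated, second WT LPS 1 h or first KD LPS 1 h replicate), where 2 genes kept an unadjusted p under 0.05 in limma.

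The genes most like each member over the 12 arrays are given as a description, since all signals share the same 6 groups and scaling. Ptgs2 was most like Acod1 (r = 0.96), which makes itaconate in activated macrophages, followed by Trim13 (r = 0.96) and Sdc4 (r = 0.957). Ptges was most like St3gal3 (r = 0.994), followed by Lcp2 (r = 0.987) and Plek (r = 0.986). Ptger4 was most like the immediate early gene Jun (r = 0.983), followed by Ndrg3 (r = 0.977) and Fos, another such gene (r = 0.975). Hpgds was most like Knop1 (r = 0.962), Kantr (r = 0.951) and Casp9 (r = 0.949). Tbxas1 was most like Gpr155 (r = 0.954), Mef2c (r = 0.935) and Rab3gap2 (r = 0.934), and Ptger2 like Mob3b (r = 0.925), Serp1 (r = 0.924) and Anxa3 (r = 0.922). Alox5ap was most like Daglb (r = 0.966), a lipase that makes an arachidonic acid precursor, followed by Aprt (r = 0.964) and Cdc7 (r = 0.962). Among the members themselves, Tbxas1 and Ptger2 ran most opposite to each other (r = -0.929), and Ptgs2 and Ptges most alike (r = 0.791).

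Other genes of the pathway were taken from 6 lists of 74 genes, of which 66 had a probe set and 55 were tested. After 4 h of LPS, 12 of the 55 were called in KD and 12 in WT, against 10.0% and 17.1% of all probe sets. In the release of arachidonic acid, 1 of 19 rose and 5 fell in KD, and 0 rose and 4 fell in WT. The fallen genes included the diacylglycerol lipases Dagla (-0.78 ± 0.24 in KD, -1.09 ± 0.24 in WT) and Daglb (-0.60 ± 0.09 in KD, -0.66 ± 0.09 in WT), and the lysosomal phospholipase Pla2g15 (-1.11 ± 0.26 in KD, -0.78 ± 0.26 in WT). Plcg2 fell as well, by 0.41 in KD and 0.49 in WT. Pla2g4a, the cytosolic phospholipase that frees arachidonic acid for the cyclooxygenases, rose at 1 h in KD (0.53 ± 0.12, adjusted p = 0.0116), where WT had 0.21 ± 0.12 (adjusted p = 0.375), and it was lower in KD without LPS (-0.43 ± 0.12, adjusted p = 0.0477). Faah, which breaks down anandamide, rose in KD at 4 h between low mean signals of 42.95 with LPS and 8.8 without (1.82 ± 0.51, adjusted p = 0.0262), and Plaat3 rose in WT between 1 h and 4 h (0.96 ± 0.20).

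Transport and breakdown genes held the largest rise of these lists. Slco3a1, an organic anion transporter that carries prostaglandins, averaged 284.8 in KD and 808.8 in WT at 4 h, against 35.55 in KD and 96.7 in WT without LPS. It rose by 2.87 ± 0.24 in KD (adjusted p = 1.06e-07) and 3.05 ± 0.24 in WT (adjusted p = 2.17e-08), and it was lower in KD without LPS, at 1 h and at 4 h, with differences of -1.31, -1.28 and -1.49 (adjusted p = 0.00354, 0.0113 and 0.00087). The exporter Abcc1 rose in all 4 LPS comparisons by 0.55 to 0.70 and was lower in KD at 4 h (-0.46 ± 0.12, adjusted p = 0.0222). Abcc4, an exporter of prostaglandin E2, rose in KD at 1 h (1.00 ± 0.22, adjusted p = 0.00875). The reductases Ptgr1 and Ptgr2, which inactivate prostaglandins, fell between 1 h and 4 h in both strains, Ptgr1 by 0.47 in KD and 0.57 in WT and Ptgr2 by 0.39 in KD and 0.61 in WT. Of 9 tested genes, 2 rose and 0 fell in KD at 4 h, and 2 rose and 1 fell in WT.

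Of 7 other synthases and carbonyl reductases, 1 rose in KD at 4 h and 1 fell in WT. Gstm2, a glutathione transferase whose family members are near copies of each other, rose in KD at 1 h (1.11 ± 0.17) and at 4 h (1.10 ± 0.17) and was lower in KD without LPS (-1.20 ± 0.17, adjusted p = 0.000491). Cbr3 fell in WT at 4 h (-0.90 ± 0.17) and was then higher in KD (0.73 ± 0.17, adjusted p = 0.0132). Cbr1 fell in WT between 1 h and 4 h (-0.52 ± 0.16), and Gpx1, a glutathione peroxidase, was higher in KD without LPS (0.38 ± 0.11, adjusted p = 0.0496). Of 5 other prostanoid receptors, 1 rose in KD at 4 h and 1 fell in WT. Ptgir, the prostacyclin receptor, rose in KD at 4 h (1.04 ± 0.16, adjusted p = 0.000142), where WT had 0.31 ± 0.16 (adjusted p = 0.21). Pparg, a nuclear receptor for prostaglandin metabolites, had a change of -0.76 ± 0.25 in KD at 4 h (adjusted p = 0.0591) and fell in WT (-1.16 ± 0.25, adjusted p = 0.00239).

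Of 11 tested genes of the leukotriene and lipoxygenase branch, 2 rose in KD at 4 h and 1 in WT. Fpr2, a receptor for lipoxin and formyl peptides, rose in KD by 1.64 ± 0.10 and in WT by 2.04 ± 0.10. Dpep1, a dipeptidase of leukotriene D4, rose in KD (1.02 ± 0.25, adjusted p = 0.0115). Alox5, the lipoxygenase that works with Alox5ap, averaged 88 in KD and 46.05 in WT at 4 h, so that it was higher in KD (0.90 ± 0.25, adjusted p = 0.0371), and it fell in WT between 1 h and 4 h (-1.24 ± 0.25). Cysltr1 and Mgst2 fell between 1 h and 4 h in both strains, Cysltr1 by 0.93 in KD and 0.95 in WT and Mgst2 by 0.60 in KD and 0.68 in WT. Of 4 chaperones and partners of the terminal synthases, 0 rose in KD at 4 h and 2 in WT. The WT genes were Stip1 (0.74 ± 0.17, adjusted p = 0.00332) and Hsp90aa1 (0.56 ± 0.12, adjusted p = 0.00161), and at 4 h Stip1 was lower in KD than in WT (-0.60 ± 0.17, adjusted p = 0.0395). Ahsa1 was higher in KD without LPS (0.49 ± 0.11) and at 4 h (0.39 ± 0.11), and Csnk2a1 rose in WT at 1 h (0.41 ± 0.12).

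None of the 55 pathway genes was called in the differences between the strains' responses by limma, although 7 at 1 h and 9 at 4 h had an unadjusted p under 0.05. Differences between strains in which 1 response was called and the other was not are thus not shown for these genes.

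**Figure D5:**
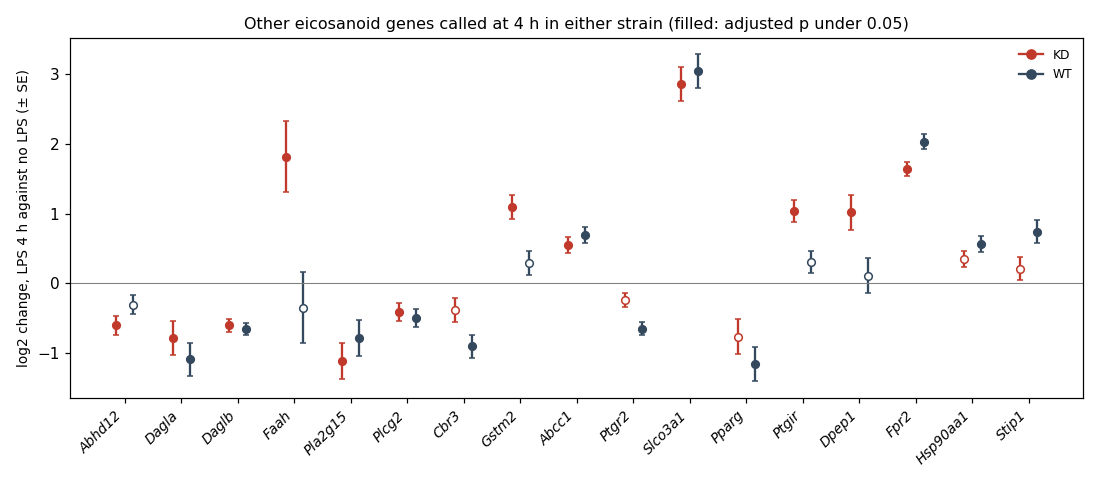
Log2 change after 4 h of LPS against no LPS, KD left of WT, for the 17 pathway genes called in either strain, with bars for the SE of the fit and filled points at an adjusted p under 0.05. Slco3a1 (2.87 in KD, 3.05 in WT) and Fpr2 (1.64 in KD, 2.04 in WT) rose in both strains, and Dagla, Daglb, Pla2g15 and Plcg2 fell in both.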

How the data were processed

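Gene expression was measured in 12 arrays of mouse bone marrow macrophages, 2 for each of 6 groups set by the labels. Per the labels' protocols, RNeasy kits were used for the RNA and NuGEN Ovation for labelling. The deposited table holds linear signal intensities by probe set, made by the authors with MAS5 per the submitters' processing notes, whose version is not given in the sources used here, and 0 other per-sample columns were left out. Every array had a trimmed mean of 150, and no further scaling was applied. The number of arrays sets the precision.

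Of 45101 rows, 64 were array controls and were left out. By the annotation table, 34958 probe sets had 1 symbol, 932 had several and 9211 had none, and 34754 of the first kind were matched by Entrez identifier to the RefSeq gene table of GRCm38.p6. Deposited intensities were turned here into log2(value + 4.4), 4.4 being the 20th percentile of all values. A probe set was tested if above the array median on at least 2 arrays, which left 27931. In R 4.3.3, limma 3.58.1 fitted 1 mean per group with a variance prior trended on mean signal, and p-values were adjusted by Benjamini-Hochberg over all 27931 in each of 11 comparisons. Intervals are 95% intervals of that fit. The fit was tested on simulated data. Where several probe sets of a gene were tested, the count used the one of highest mean signal, taking plain identifiers before those marked as cross-hybridising.

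The design text calls the replicates biological, but the labels do not tie them to animals, so p-values measure the spread between arrays, which may be technical. All members were named. Of the 6 pathway lists, up to 6 genes called in any comparison were to be named per list, by size of change. Pla2g4a was added after its values were seen. The 3 genes most like each LPS-responsive member were taken by Pearson correlation. The members and lists were chosen with earlier results of these data known. Alternatives were quantile normalization, median centring, no filter, pseudocounts of 1 and 23.4, a stricter filter (75th percentile), a variance prior without a trend, only the arrays of a comparison, a replicate block, and leaving out each array. Numbers were paired across groups to check for a block: over 15 pairs of groups, the correlation of same-numbered deviations ran between -0.07 and 0.04.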

Additional observations from a re-analysis of the deposited data

Results flagged for a closer look

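By the interaction test (limma, adjusted p under 0.05), the responses of KD and WT cells to LPS differed for 2 of the 12 probe sets at 1 h. Of all probe sets tested, 0.326% were called. The KD response of Ptgs2 by 1417262_at was larger by 0.73, and that of Ptger4 by 1424208_at differed by -0.76. At 4 h the test called 5 of the 12, and 3.07% of all probe sets tested. Ptgs2 differed by 0.54 for 1417262_at and by -2.74 for 1417263_at, so that the gene's probe sets had opposite signs. Ptges differed by -1.61 for 1439747_at and by -3.85 for 1449449_at. Ptger4 differed by 0.98 for 1424208_at, opposite in sign to its value at 1 h. The causes of these differences were not tested. With the variance prior without a trend, 0 of the 8 genes, counted by 1 probe set each, were called at either time.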

How the results depend on the processing

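Of 88 values (8 genes in 11 comparisons), 44 were called. Of these, 20 were kept under every alternative and 26 in all fits that left out 1 array, and 0 values changed sign across a call. Of the 44 not called, 38 stayed so under every alternative.

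With the variance prior without a trend, called genes numbered 1 (of 3) for KD LPS 1 h against no LPS, 4 (of 7) for KD LPS 4 h, 3 (of 6) for WT from 1 h to 4 h, 1 (of 3) for KD against WT without LPS, 0 (of 2) at 1 h and 2 (of 4) at 4 h, and 0 for both interactions (of 2 and 3), where limma gave 3, 2 and 3 genes with an unadjusted p under 0.05 in place of the 3 counts of 0. Median centring, no filter and only the arrays of the comparison each gave 1 for KD against WT without LPS, and the last also gave 1 for KD LPS 1 h. Median centring moved the median KD-to-WT difference of all probe sets to -0.16, -0.22 and -0.18 without LPS, at 1 h and at 4 h (0.03, 0.05 and 0.08 as deposited), and called 2382, 2451 and 3517 probe sets in place of 1465, 309 and 1500. Centring moved all probe sets of an array alike, so that a gene's difference relative to that median stayed about the same.

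Leaving out 1 array gave 2 to 3 called genes for KD LPS 1 h, 4 to 7 for KD LPS 4 h, 3 to 4 for KD from 1 h to 4 h, 3 to 4 for WT LPS 1 h, 5 to 7 for WT LPS 4 h and 2 to 6 for WT from 1 h to 4 h. KD against WT gave 1 to 3 without LPS, 1 to 2 at 1 h and 3 to 4 at 4 h, and the interactions gave 0 to 2 at 1 h and 2 to 3 at 4 h. A group left with 1 array is assumed to vary like the others. The replicate numbers do not pair the arrays, and with a replicate block the counts were the same in all 11 comparisons, at 3, 7, 4, 3, 7, 6, 3, 2, 4, 2 and 3. The causes of the lost calls were not tested.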
